A study of Rattus norvegicus with 14 samples.

Results

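Molecular chaperones of the cytosol, the mitochondria and the endoplasmic reticulum (ER) were examined in RNA of the hippocampal subfield CA3. The set comprised 9 genes: Hsp90ab1, Hspa8 and Dnaja1 of the cytosol, Hspd1 and Hspe1 of the mitochondria, and Hspa5, Hsp90b1, Calr and Canx of the ER. Members were all probe sets that the array's annotation assigns to 1 of these genes and to no other. That rule gave 12 probe sets for 8 of the 9 genes, out of 12789 probe sets for 10412 genes with such an annotation. The 1 listed probe set of Hspa8, the constitutive cytosolic HSP70, is shared with another gene, so no value is given for Hspa8. None of the 12 was dim: each lay above the filter of 3.88 on the log2 scale, the 40th percentile of mean levels, and all 12 were tested.

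The comparison was between 7 learning rats and 7 control rats, 1 Affymetrix RAE230A array per rat. All were young male Long-Evans rats, 3 to 4 months old, with no genetic change, and all had been trained in a standard water maze 2 to 3 weeks before. In a single later session of 8 trials at intervals of 8 min in an unfamiliar maze, the learning rats had orienting cues and a visible platform in a fixed place, while the visible platform of the control rats moved and informative cues were missing. Both groups swam a platform-free probe trial of 90 s after 1 h and were killed directly after it, so swimming, handling and an unfamiliar pool were common to both groups, and the effects of the cues and of the fixed platform cannot be told apart.

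Chaperones bind proteins that are not yet folded or have lost their fold. In the cytosol the HSP70 and HSP90 machines act with J-domain partners such as Dnaja1. In the ER, Hspa5 (BiP) and Hsp90b1 (Grp94) hold new secretory and membrane proteins, and the lectins calnexin (Canx, anchored in the membrane) and calreticulin (Calr, free in the lumen) retain glycoproteins, among them receptor subunits of neurons, until they are folded. Cells that are heated or otherwise stressed raise many cytosolic and mitochondrial chaperones through heat shock factor, though Hspa8 and Hsp90ab1 are constitutive forms. A load of unfolded protein in the ER raises the ER members through the unfolded protein response.

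The promoters of the members are printed because they show this division in part, with neither searched motif in the cytosolic Hsp90ab1. They were taken from RefSeq on the GRCr8 assembly, which held all 9 genes, as windows of 300 bases with 250 before and 50 after the annotated start site. The ER stress element was searched on both strands as CCAAT and then, after a gap of 9 bases, CCACG. It was found in 22 of 33469 promoters (0.0657%), and 4 of the 9 members held it, namely the 4 ER members. The separate letters CCACG were in 31.6% and CCAAT in 37.5% of all promoters, so these overlap with the longer element and are common on their own. The stretches that hold the element follow, 5′ to 3′ on the strand of the gene, with the letters of the element in capitals and the gap in lower case.
Hspa5 (chr3:38452953-38453011, + strand): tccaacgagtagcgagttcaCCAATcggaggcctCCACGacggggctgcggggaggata
Hsp90b1 (chr7:23012327-23012489, - strand): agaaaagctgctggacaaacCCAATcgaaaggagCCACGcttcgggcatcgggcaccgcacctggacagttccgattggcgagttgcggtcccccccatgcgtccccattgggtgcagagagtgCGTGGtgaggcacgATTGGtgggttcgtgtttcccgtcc
Calr (chr19:40213117-40213173, + strand): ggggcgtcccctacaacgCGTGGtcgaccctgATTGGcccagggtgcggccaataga
Canx (chr10:35158049-35158107, - strand): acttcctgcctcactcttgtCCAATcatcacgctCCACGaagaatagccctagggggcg

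Counted from the start site, the element began at position -43 in Hspa5, at -230 in Canx and, in the opposite orientation, at -232 in Calr. Hsp90b1 held it 2 times, at -176 and, in the opposite orientation, at -72. The core of a heat shock element was searched as GAA and TTC with 2 bases between them, in either order, each of which reads the same on both strands, with overlapping matches counted. It was in 15.9% of all promoters and in 4 members, Hspa8, Dnaja1, Hspd1 and Hspe1. Hspd1 and Hspe1 lie head to head with start sites 290 bases apart, their windows share 211 bases, and the 3 overlapping cores are the same letters in both, printed here from the side of Hspe1 with the core letters in capitals.
Hspe1 (chr9:64084242-64084299, + strand): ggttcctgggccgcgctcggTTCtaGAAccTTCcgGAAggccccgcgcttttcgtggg

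Neither motif was in the window of Hsp90ab1. A match is a run of letters and was not tested as a binding site. Both motifs are textbook elements of the heat shock and ER stress responses and were searched for that reason. Their presence in these genes is a description and no independent evidence for the division.

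**Figure D1:**
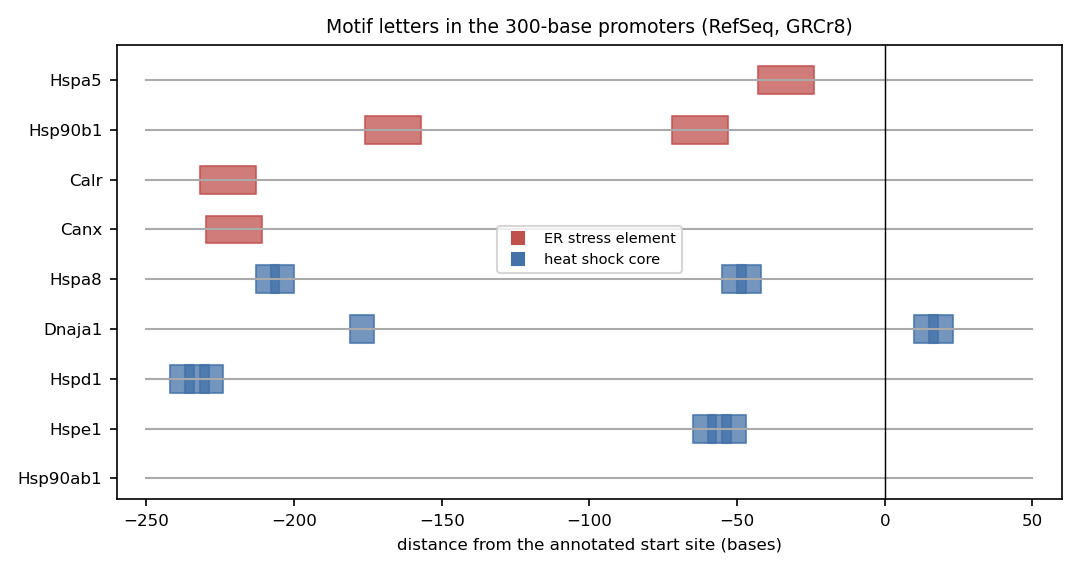
Motif letters in the promoters of the 9 chaperone genes, with the distance from the annotated start site in bases on the x axis and 1 line of 300 bases per gene. Red boxes are ER stress elements and blue boxes heat shock cores (darker where they overlap). The 4 ER genes hold red boxes, Hspa8, Dnaja1, Hspd1 and Hspe1 hold blue ones, and Hsp90ab1 holds neither.

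Among the 8 measured genes, calnexin was the only one with probe sets that passed the test, 2 of its 3, both higher in learning rats. Its brightest probe set, 1371686_at, did not pass (log2 difference 0.02, limma adjusted p = 0.830). With the Gapdh 3′/5′ ratio or the balance between probe sets as a covariate, both described below, 0 member probe sets passed. At 7 genes no probe set passed the test. Hspa5, Hsp90b1 and Calr, which share the ER stress element with Canx, differed by less than 0.1 on the log2 scale, and so did Dnaja1, Hspd1 and Hspe1. All tests were made with limma on log2 levels over 9520 probe sets with Benjamini-Hochberg adjustment, and "called" means an adjusted p under 0.05. Called were 2 of the 12 member probe sets, both higher, where 3.35% of all tested probe sets were called and 2.55% were called higher. These 2 belong to 1 gene and do not count as independent results. Over the 14 arrays their deviations from the group means had a Pearson r of 0.18, without a test. The brightest Canx probe set had r = 0.48 with 1388442_at and -0.03 with 1371687_at. At an unadjusted p under 0.05 there were 3 of the 12, the third being a probe set of Hsp90ab1. The median log2 difference was 0.02 over the 12 probe sets and -0.02 over all tested ones, and the median size was 0.0395 against 0.0647.

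Canx was measured at probe sets 1371686_at, 1388442_at and 1371687_at, named here by their identifiers. At 1371687_at the lowest, median and highest log2 levels were 8.38, 8.53 and 8.82 in learning rats and 7.56, 8.16 and 8.19 in control rats. All 7 learning rats lay above all 7 control rats, with a gap of 0.193. The mean was 8.59 ± 0.17 in learning and 8.06 ± 0.23 in control rats (SD, n = 7 each), a log2 fold change of 0.53 (SE 0.0982, 1.44-fold, limma adjusted p = 0.0102).

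At 1388442_at the same 3 values were 9.98, 10.06 and 10.18 in learning rats and 9.72, 9.80 and 9.98 in control rats. Again no rat of one group lay among the other, but the gap between the lowest learning and the highest control rat was only 1.12e-04. The means of 10.07 ± 0.08 and 9.82 ± 0.10 (learning and control, SD, n = 7 each) gave a log2 fold change of 0.25 (SE 0.0509, 1.19-fold, limma adjusted p = 0.0186). Groups without overlap were found at 2 of the 12 member probe sets, both of Canx, and at 2.1% of all tested probe sets.

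The third probe set, 1371686_at, did not pass. Its log2 levels were 9.98, 10.07 and 10.17 (lowest, median, highest) in learning rats and 9.97, 10.04 and 10.14 in control rats, so the groups overlapped over nearly their whole range. The log2 difference was 0.02 (SE 0.0374, 95% interval -0.06 to 0.0984, limma adjusted p = 0.830). The deposited table and its annotation do not say which stretch of the Canx transcript each probe set reads.

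Whether the probe sets of a gene differed in their response was tested on the difference between them in each rat, by two-sided exact permutation of the 14 arrays, over 5 pairs of probe sets in the 3 genes with more than 1. These pairs were chosen after the values were seen. For Canx, 1371687_at minus 1371686_at averaged -1.49 ± 0.15 in learning and -2.00 ± 0.26 in control rats (SD, n = 7 each, exact p = 5.83e-04, adjusted p = 0.00146), and no rat of one group lay within the other. Likewise 1388442_at minus 1371686_at averaged -0.0036 ± 0.0808 in learning and -0.23 ± 0.09 in control rats (SD, n = 7 each, exact p = 5.83e-04, adjusted p = 0.00146). The 2 called probe sets also differed from each other, by 0.28 (exact p = 0.0122, adjusted p = 0.0153). The first 2 of these p-values are the smallest that the 3432 assignments can give. Since probe sets differ in affinity, it compares arrays and does not give the relative amount of 2 transcripts.

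A like imbalance between probe sets ran through the arrays, and its values stand here beside those of Canx. In 350 other genes with tested probe sets spread over 2 or more log2 units, the signal of the dimmest less that of the brightest came to a mean of -3.25 ± 0.03 in learning and -3.42 ± 0.11 in control rats (SD, n = 7 each, exact permutation p = 5.83e-04). Deviations of Canx 1371687_at from its group means followed the deviations of this balance over the 14 arrays, with Pearson r = 0.88 (permutation p = 0.00156, adjusted p = 0.0078) and Spearman rho = 0.68 (permutation p = 0.00416, adjusted p = 0.0208). Without the 2 arrays farthest from the median, control replicate 5 and learning replicate 6, r was 0.66. Within the learning rats alone r was 0.83 and within the controls 0.95, but it was 0.24 in the 6 controls without control replicate 5. With the balance as a covariate, an alternative added after the data were seen, the log2 difference was 0.16 at 1371687_at (adjusted p = 0.587) and 0.19 at 1388442_at (adjusted p = 0.518). In that fit 0 of all probe sets were called, and the balance itself separates the groups, so a difference between the groups and the balance cannot be told apart.

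Signs of RNA length moved with Canx in 1 array above all. Control replicate 5 had the lowest level at 1371687_at, 7.56, and the highest 3′/5′ signal ratio of all arrays for the hexokinase control probe sets, 2.57 on the log2 scale, where the other 13 arrays lay between 1.03 and 1.61. Correlations of 1371687_at with the hexokinase ratio (Pearson r = -0.77, permutation adjusted p = 0.0485, and Spearman rho = -0.35, adjusted p = 0.257) and with the actin ratio (r = -0.71, adjusted p = 0.0485, and rho = -0.46, adjusted p = 0.17) weakened to r = -0.31 and r = -0.34 without the 2 farthest arrays of each. In the 6 controls without control replicate 5, r was -0.26 for the hexokinase ratio and -0.73 for the actin ratio, and in the 7 learning rats it was -0.29 and 0.078. The 2 other relations, of 5 computed, did not pass: the Gapdh ratio gave r = -0.63 (permutation adjusted p = 0.0614) and rho = -0.19 (adjusted p = 0.676), the spike-in level r = -0.18 (adjusted p = 0.533) and rho = 0.11 (adjusted p = 0.725). For the Gapdh ratio r was -0.21 in the learning rats and -0.89 in the controls, but 0.14 in the controls without control replicate 5. The rise at 1371687_at was still called without control replicate 5 (log2 difference 0.44, adjusted p = 0.00379), as was that at 1388442_at (0.24, adjusted p = 0.0314). The Gapdh ratio averaged 0.45 ± 0.05 in learning and 0.51 ± 0.06 in control rats (SD, n = 7 each, exact p = 0.0443, adjusted p = 0.124 over 14 array measures). With it as a covariate the log2 difference was 0.38 at 1371687_at (adjusted p = 0.0919) and 0.26 at 1388442_at (adjusted p = 0.0889), and neither was called.

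**Figure D2:**
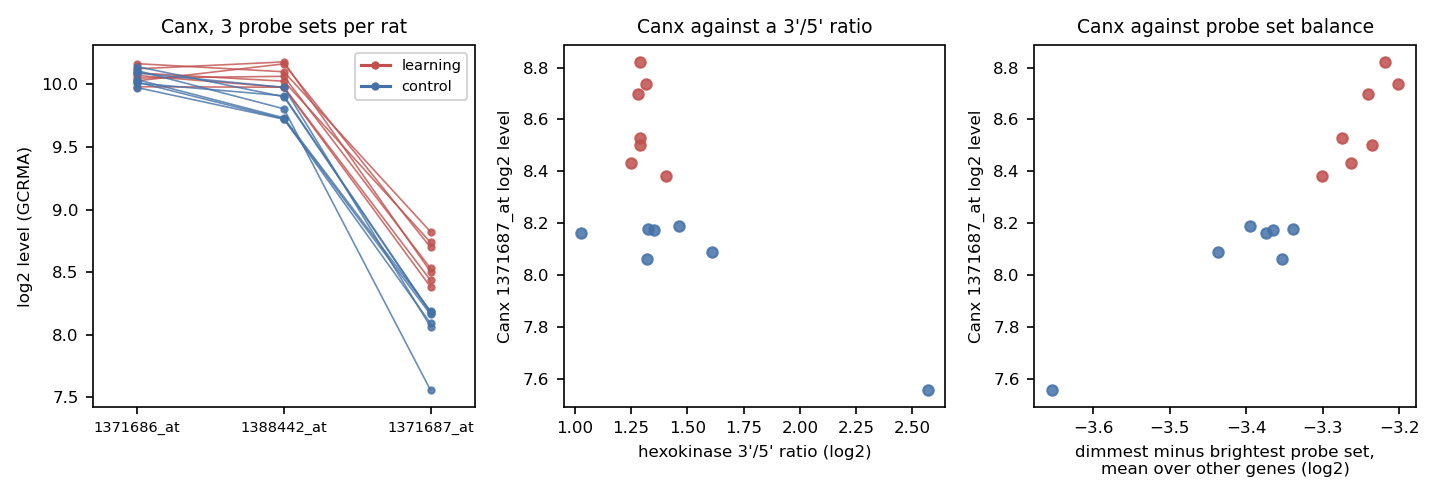
Calnexin (Canx) in each rat, learning in red and control in blue. The left panel joins the log2 levels of the 3 probe sets of each rat, the middle panel sets 1371687_at (y, log2 level) against the hexokinase 3′/5′ ratio (x, log2), and the right panel sets it against the balance of dim and bright probe sets of 350 other genes (x, log2). Learning rats lie above control rats at 1388442_at and 1371687_at and mix with them at 1371686_at. The single control rat at a hexokinase ratio of 2.57 also has the lowest level, 7.56.

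Genes whose arrays ran most like those of the 2 called Canx probe sets were ranked by the Pearson correlation of deviations from the group means over the 14 arrays, as a description without a test. For 1371687_at they were Rock2, a kinase of the actin cytoskeleton (r = 0.93), the trans-Golgi protein Tgoln2 (0.91), Manea, a mannosidase of the Golgi (0.91), Rasgrp1, an exchange factor for Ras (0.90), and Rab6a, a GTPase of Golgi traffic (0.90). Of these, Rock2, Rasgrp1 and Rab6a were themselves called higher, by 0.43, 0.98 and 0.73 on the log2 scale (adjusted p = 0.00925, 0.0352 and 0.00573). For 1388442_at they were Zswim6 (0.90), the neuronal intermediate filament Ina (0.85), Zfp260 (0.83), Syt12 (0.82) and the phosphatase Ptp4a1 (0.82). The 2 lists have no gene in common. The array balance of 350 other genes, set out above, gave r = 0.88 with 1371687_at by the same measure. Control replicate 5 lay far below the other controls at 1371687_at, and the gene correlations were not repeated without it.

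Calreticulin, the soluble counterpart of calnexin, did not pass the test. At its single probe set, 1398750_at, the lowest, median and highest log2 levels were 10.43, 10.50 and 10.64 in learning rats and 10.43, 10.56 and 10.60 in control rats, and the groups overlapped throughout. The means were 10.52 ± 0.08 in learning and 10.53 ± 0.07 in control rats (SD, n = 7 each). The log2 difference was -0.0070 (SE 0.0425, limma adjusted p = 0.948), with a 95% interval of -0.0976 to 0.0836.

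Hspa5, the ER HSP70 and a common marker of the unfolded protein response, had log2 levels of 10.86, 11.07 and 11.18 (lowest, median, highest) in learning rats and 10.50, 11.12 and 11.29 in control rats. Learning rats lay inside the range of the controls, whose lowest animal, control replicate 7, stood 0.589 below the next control rat. The log2 difference was -0.04 (SE 0.104, adjusted p = 0.857), and its 95% interval, -0.27 to 0.18, was the widest of the 12 probe sets. Without control replicate 7 the log2 difference was -0.14 (SE 0.0611, adjusted p = 0.210). Hsp90b1, the ER HSP90, had 11.24, 11.35 and 11.43 in learning rats and 11.08, 11.35 and 11.47 in control rats, with a log2 difference of 0.03 (SE 0.0549, 95% interval -0.08 to 0.15, adjusted p = 0.779). Its lowest control rat was control replicate 7 as well.

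Relations between Hspa5 and the other 11 member probe sets were computed over the 14 arrays on deviations from the group means, by permutation within groups. The closest by Pearson r were Dnaja1 1398819_at (r = 0.67, adjusted p = 0.156, Spearman rho = 0.38, adjusted p = 0.375), Hsp90b1 (r = 0.64, adjusted p = 0.156, rho = 0.44, adjusted p = 0.375) and Calr (r = 0.59, adjusted p = 0.156, rho = 0.65, adjusted p = 0.191). None of the 11 passed by either measure. Without the 2 arrays farthest from the median of Hspa5, control replicate 7 and learning replicate 3, r was 0.26 for Dnaja1, 0.38 for Hsp90b1 and 0.57 for Calr. For the called Canx probe sets r was -0.22 at 1388442_at (adjusted p = 0.589, rho = -0.15, adjusted p = 0.705) and -0.27 at 1371687_at (adjusted p = 0.355, rho = -0.11, adjusted p = 0.705).

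In the cytosol, Hsp90ab1, the constitutive HSP90, gave differences of opposite sign at its 2 probe sets, and neither passed. At 1375335_at the lowest, median and highest log2 levels were 11.80, 12.03 and 12.32 in learning rats and 11.53, 11.73 and 11.98 in control rats. All 7 learning rats lay above the control mean and 4 above the highest control rat. The log2 difference was 0.29 (SE 0.0875, 1.22-fold, unadjusted p = 0.0052, limma adjusted p = 0.0867).

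At the other Hsp90ab1 probe set, 1375336_at, levels were 12.84, 12.90 and 12.97 in learning rats and 12.86, 12.97 and 13.09 in control rats, and all 7 learning rats lay below the control mean. The log2 difference there was -0.07 (SE 0.0374, 95% interval -0.15 to 0.0068, limma adjusted p = 0.295). The difference between the 2 probe sets, 1375335_at minus 1375336_at, was -0.86 ± 0.17 in learning and -1.22 ± 0.14 in control rats (SD, n = 7 each, exact permutation p = 0.00117, adjusted p = 0.00194). As at Canx, the probe set with the lower signal was the one that stood higher in learning rats, and no gene-level change of Hsp90ab1 was called when its 2 probe sets were averaged (0.11, adjusted p = 0.291). The balance of dim and bright probe sets in 350 other genes moved in the same direction. With that balance as a covariate the log2 difference at 1375335_at was 0.07 (limma adjusted p = 0.886). Here too a difference between the groups and the balance cannot be told apart.

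Dnaja1, the J-domain protein that delivers clients to HSP70, did not pass the test at either of its probe sets. At 1368852_at its log2 levels were 10.83, 10.87 and 10.97 in learning rats and 10.77, 10.82 and 10.995 in control rats (log2 difference 0.03, SE 0.041, adjusted p = 0.762). At 1398819_at they were 10.51, 10.63 and 10.68 in learning rats and 10.39, 10.56 and 10.63 in control rats (log2 difference 0.06, SE 0.0403, 95% interval -0.03 to 0.14, adjusted p = 0.445). The difference between its 2 probe sets did not pass either, at -0.27 ± 0.05 in learning and -0.30 ± 0.10 in control rats (SD, n = 7 each, exact permutation p = 0.463, adjusted p = 0.463).

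The mitochondrial chaperonin pair, Hspd1 (HSP60) and its lid Hspe1 (HSP10), did not pass the test. Hspd1 had log2 levels of 10.12, 10.22 and 10.35 in learning rats and 10.17, 10.26 and 10.34 in control rats, with a log2 difference of -0.03 (SE 0.0387, 95% interval -0.11 to 0.0547, adjusted p = 0.741). Hspe1 had 11.25, 11.28 and 11.39 in learning rats and 11.22, 11.32 and 11.48 in control rats, with -0.03 (SE 0.0397, 95% interval -0.12 to 0.0537, adjusted p = 0.717). In each gene the groups overlapped.

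**Figure D3:**
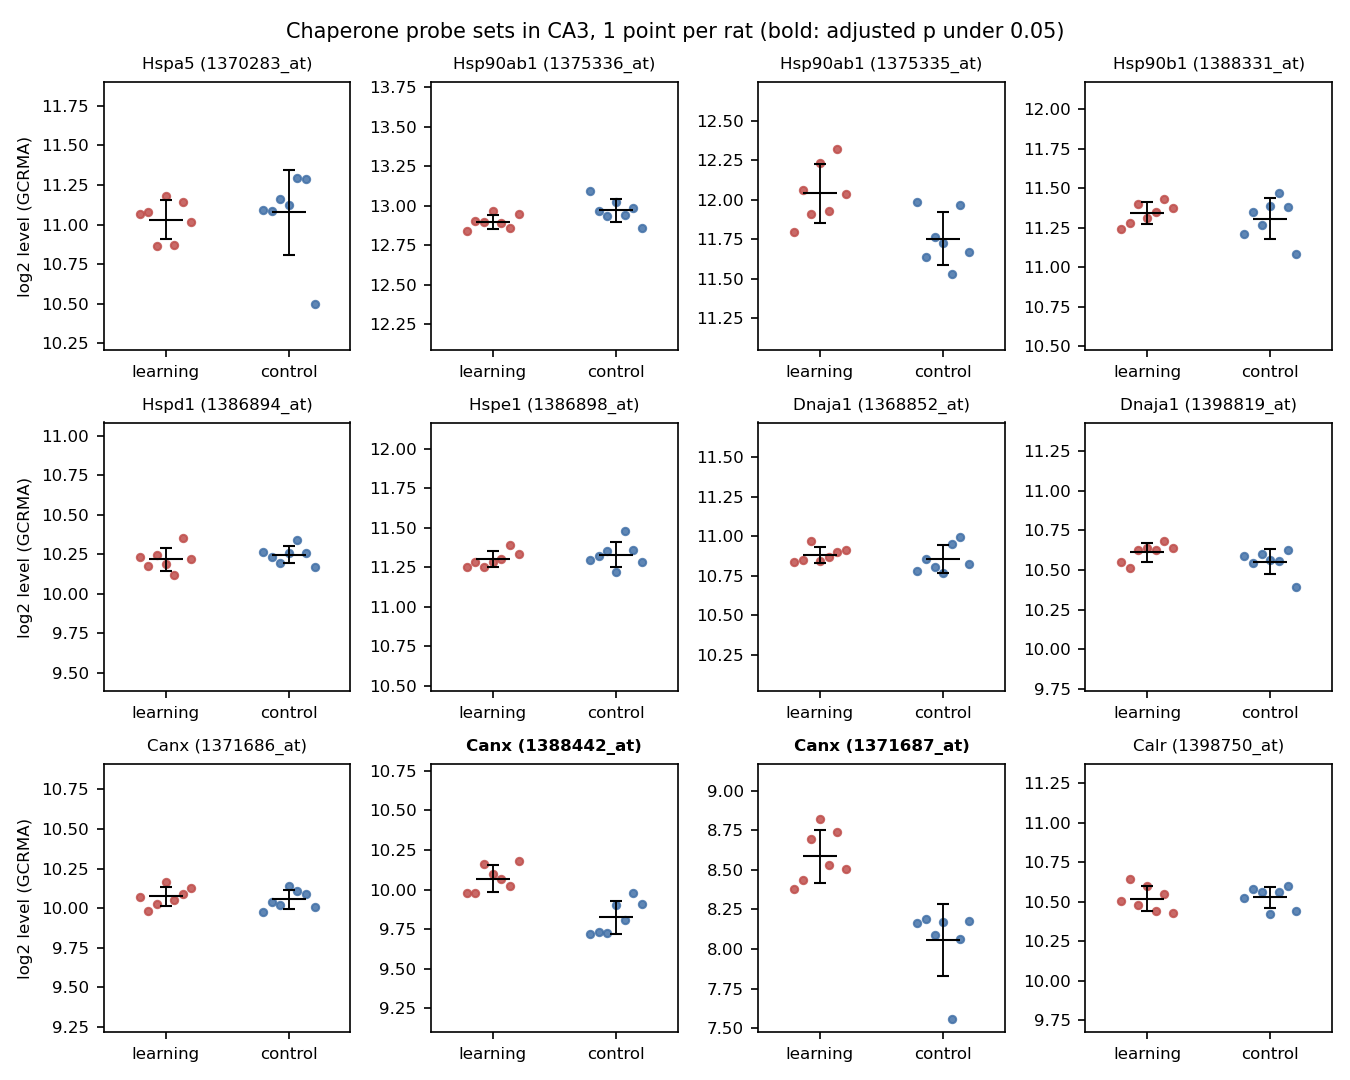
Log2 expression level (y axis, a span of 1.7 units in every panel) at each of the 12 chaperone probe sets, 1 point per rat, learning rats in red at the left and control rats in blue at the right of each panel. Black bars give the mean ± SD of 7 rats. The groups are apart at Canx 1388442_at and 1371687_at and overlap in the other 10 panels.

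**Figure D4:**
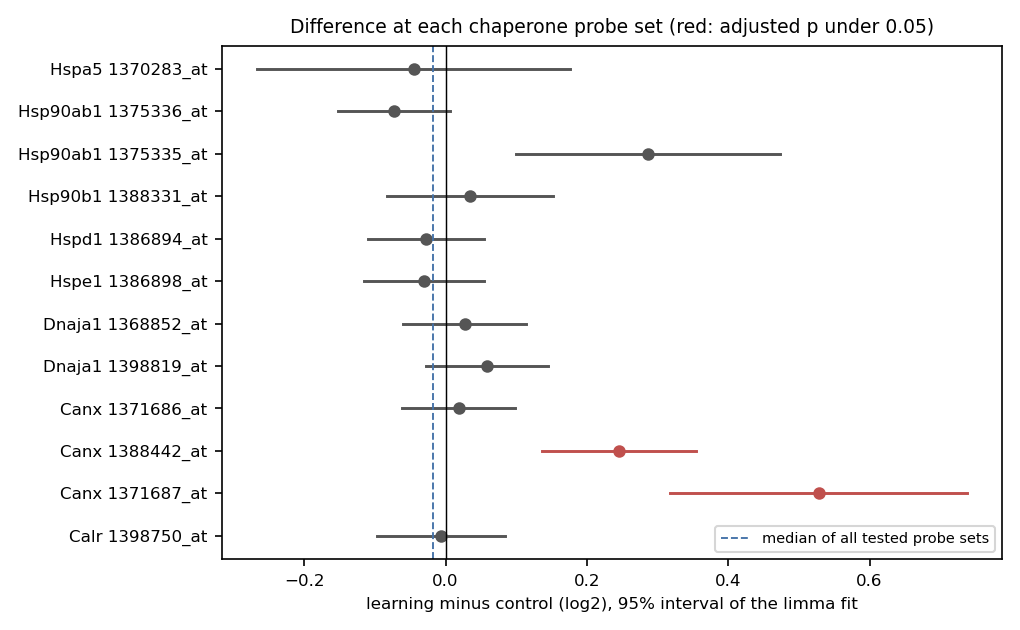
Learning minus control at each chaperone probe set on the log2 scale (points) with the 95% interval of the limma fit (lines), red where called. The dashed line marks -0.02, the median of all 9520 tested probe sets. The 2 called Canx probe sets and Hsp90ab1 1375335_at stand to the right of 0 with intervals that do not reach it.

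In the rest of the chaperone network no gene was called. Over 6 lists with 112 genes, 100 were tested at their brightest probe set and 0 were called by limma in either direction, and 0 at any other probe set, where 2.57% of all 6836 genes were called at their brightest. At an unadjusted p under 0.05 there were 18 of the 100, against 19.9% of all tested probe sets. The median log2 difference of the 100 was -0.03, the same as that of all genes, -0.03.

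Among 11 tested genes of the cytosolic HSP70, HSP90 and small heat shock proteins, 4 lay above 0 and 7 below, with a median of -0.04. Hsf2, a heat shock transcription factor, had 0.18 (adjusted p = 0.135) and Hspa4, an HSP110-type partner of HSP70, 0.31 (adjusted p = 0.294), while Hsph1 had -0.08 (adjusted p = 0.350). Of 24 J-domain proteins and co-chaperones 7 lay above 0, and the lowest p-values were those of Bag1, a nucleotide exchange factor of HSP70 (-0.17, adjusted p = 0.0715), the ubiquitin ligase Stub1 (-0.14, adjusted p = 0.109) and Bag3 (-0.15, adjusted p = 0.223). Bag1 was called without control replicate 6 (-0.19, adjusted p = 0.0460) or 7 (-0.19, adjusted p = 0.0406).

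Of 28 genes of ER folding and quality control, 8 lay above 0 and 20 below, with a median of -0.02. Sel1l, part of the machinery that withdraws misfolded proteins from the ER, had 0.36 (adjusted p = 0.0826), Ppib, a prolyl isomerase, -0.10 (adjusted p = 0.127), Prkcsh, a subunit of the glucosidase that prepares glycoproteins for calnexin, -0.11 (adjusted p = 0.133), and Pdia3, the disulfide isomerase that works with calnexin and calreticulin, 0.02 (adjusted p = 0.883). Hyou1, the ER HSP110, was highly variable, with a log2 difference of 0.55 (SE 0.602, adjusted p = 0.662). Of 13 transducers and factors of the unfolded protein response, Atf4 had -0.09 (adjusted p = 0.228), Eif2s1 0.09 (adjusted p = 0.238) and Xbp1 0.03 (adjusted p = 0.842).

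In the mitochondrial list of 11 genes, 3 lay above 0. The lowest p at a brightest probe set was that of Afg3l2 (-0.10, limma adjusted p = 0.135). Hspa9, the HSP70 that feeds proteins to Hspd1, had -0.10 at its brighter probe set (adjusted p = 0.168) and 0.22 at the dimmer one (adjusted p = 0.110). Yme1l1 had -0.09 at its brighter probe set (adjusted p = 0.420) and 0.23 at the dimmer one, just short of a call (adjusted p = 0.0515). The cytosolic chaperonin TRiC and prefoldin, which fold actin and tubulin, had the lowest median of the 6 lists, -0.09 over 13 genes, 12 of them below 0 and 6 at an unadjusted p under 0.05. Pfdn5 (-0.16, adjusted p = 0.114), Pfdn6 (-0.14, adjusted p = 0.123) and Cct3 (-0.11, adjusted p = 0.140) came closest to the threshold.

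The 22 promoters with the ER stress element belong to 21 genes, since the table holds more than 1 start site for some genes. Of these, 17 are not members, and 9 of the 17 were tested. Of the 9, 0 were called by limma and 1 had an unadjusted p under 0.05. Above 0 lay 8 and below it 1, and the median log2 difference was 0.05, against -0.03 over all genes. The largest difference and the lowest p were those of Ppm1l, a protein phosphatase (0.74, SE 0.246, adjusted p = 0.110), followed in size by Dnajc3 (0.18, adjusted p = 0.278), and Creld2 had 0.06 (adjusted p = 0.828). Members with the element lay on both sides of 0 at their brightest probe sets, Canx at 0.02, Hsp90b1 at 0.03, Hspa5 at -0.04 and Calr at -0.0070. A shared shift of genes with the element was not tested.

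**Figure D5:**
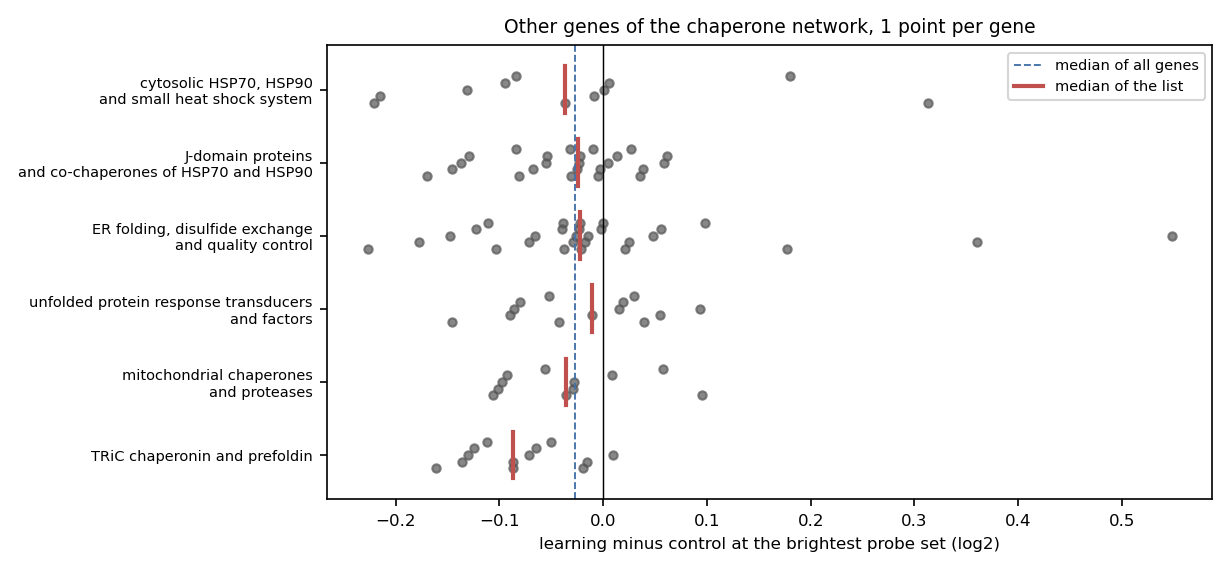
Learning minus control on the log2 scale (x axis) for the genes of 6 lists of the chaperone network, 1 point per gene at its brightest probe set, with the median of each list as a red bar and that of all genes, -0.03, as a dashed line. No gene was called, and the TRiC and prefoldin list has the lowest median, -0.09.

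Tissue markers and array quality are given as ranges. Correlations between arrays ran from 0.983 to 0.995. Of 6 CA3 pyramidal markers 3 passed the filter, and these averaged 9.28 ± 0.06 in learning and 9.25 ± 0.12 in control rats (SD, n = 7 each, exact p = 0.607). Of 9 marker lists, choroid plexus markers (3 of 6 tested) ranged from 4.85 to 5.71 in learning and from 5.62 to 7.17 in control rats (exact p = 0.00117, adjusted p = 0.00816), and the other 8 did not pass after adjustment, with dentate granule markers (2 of 7 tested) at 6.68 ± 0.25 and 6.84 ± 0.41 (learning and control, exact p = 0.406). Hybridization spike-ins were 0.20 brighter in learning arrays (exact p = 0.00524, adjusted p = 0.0245). The part of these measures in the Canx result was not tested beyond the covariates given. In whole tissue, fewer cells of a type and less RNA per cell cannot be told apart.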

How the data were processed

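RNA of CA3 from 14 rats, grouped by sample title, was measured on Affymetrix RAE230A arrays, 1 per rat. The deposited values are log2 levels per probe set (15923), made by the authors with GCRMA, per the submitters' processing notes. Neither version nor settings are stated there, and it is their span, -0.09 to 14.24, that shows a log2 scale. GCRMA corrects background by probe sequence and can compress or amplify differences of dim probe sets. Symbols of 12789 single-gene probe sets came from the platform annotation, 12754 of them updated through Entrez IDs to RefSeq GRCr8, and 312 with several genes were left unnamed. After removal of 57 control and 6346 dim probe sets (mean below the 40th percentile), 9520 were fitted with limma 3.58.1 (lmFit, eBayes) in R 4.3.3, learning minus control, with Benjamini-Hochberg adjustment and intervals at 95%. Single values per array were compared by exact permutation, and correlations with 100000 resamples. The procedure was tested on simulated data. The rule for named genes took all members, called genes of the lists, and of the rest the 3 lowest p and the 2 brightest per list, and the 5 genes most like each called member. Not every gene that this rule took from the lists is named in the text. Hyou1, Ppm1l, Creld2, Dnajc3, Pdia4, Pdia6, Manf and Yme1l1, the dimmer Hspa9 probe set and the genes nearest to Hspa5 were named after their values were seen. Members and lists were chosen with earlier results of these data known. Alternatives covered filters, variance moderation, weights, normalization, covariates, the replicate block and left-out arrays. No batch label was used here, and arrays have no read depth, so their number limits the precision. Protein sequences were not used here.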

Additional observations from a re-analysis of the deposited data

Results flagged for a closer look

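In 3 of 24 groups of 7 rats (12 probe sets in 2 groups) the lowest animal stood far from the others, with a gap to the next rat that was a larger part of the range than Dixon's critical value at 95%, which chance passes in about 1 in 20 groups. Hspa5 was 10.50 in control replicate 7, and the other 6 control rats lay between 11.08 and 11.29. Dnaja1 1398819_at was 10.39 in the same rat, against 10.55 to 10.63 in the other controls. Canx 1371687_at was 7.56 in control replicate 5, against 8.06 to 8.19 in the other controls. That array also had the highest hexokinase (2.57), actin (1.65) and Gapdh (0.64) 3′/5′ ratios. Without both arrays, an alternative added after the data were seen, the 2 Canx probe sets were still called, with log2 differences of 0.45 (limma adjusted p = 0.00688) and 0.26 (adjusted p = 0.0337).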

How the results depend on the processing

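Over 31 or 32 alternatives per probe set, 357 of 379 values kept direction and side of the threshold. In these numbers the fit without control replicate 5 is counted again as the fit without the array of highest 3′/5′ ratios. Called member probe sets numbered 2, the same Canx pair, in each setting except with the Gapdh 3′/5′ ratio (0) or the probe set balance (0) as covariate, and the replicate block left them at 2 (adjusted p = 0.0181 and 0.0276). All calls numbered 313 with that block. The replicate numbers mark no shared animal, and deviations of same-numbered rats correlated at -0.156 to 0.128, with 1 of 7 learning rats closest to its own number. Averaged over its 3 probe sets, Canx was called (0.26, adjusted p = 0.00726). All calls together, 319 in the reported fit, were 158 without a filter. By covariate they were 39 (Gapdh), 177 (hexokinase), 271 (actin), 143 (spike-ins), 163 (dentate markers) and 0 (balance). They ran from 163 to 352 with single arrays left out, at 163 to 188 without learning replicate 3, 4, 6 or 7 or control replicate 1, 2 or 3. The other genes of the network had 1 call with the spike-in level (Bag1), and 0 to 2 with single arrays left out, Bag1 and, without control replicate 7, also Pdia4 (-0.25, adjusted p = 0.0388).

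Signs turned in differences that were not called, and the cause was not tested. Hspa5 was 0.0458 with the Gapdh ratio, 0.0026 with the actin ratio and 0.11 with the balance, against -0.14 without control replicate 7 and -0.12 without control replicates 5 and 7. Hspd1 was 0.0248 and 0.0098, and Hspe1 0.0111 and 0.0507, with the Gapdh ratio and the balance. With single arrays left out, Hsp90b1 ran from -0.0031 (without control replicate 7) to 0.0613 and Calr from -0.0273 to 0.0082, above 0 without learning replicate 5 or 7 or control replicate 2 or 6. Hsp90ab1 1375336_at became 0.11 in the gene mean. Calr was 4.4e-04 with the hexokinase ratio, 4.7e-04 with the actin ratio, 0.0081 with the spike-in level and 0.0173 with the balance.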

Other observations

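Variation of chaperone genes between animals, in the ER and outside it, was seen apart from the groups. In control replicate 7, the rat with the lowest Hspa5, 8 of 28 tested genes of ER folding and quality control (28.6%) had their lowest level of all 14 rats, where this array was lowest at 5.19% of all tested probe sets. Among them were Manf, a protein secreted under ER stress (8.45, against 8.83 to 9.23 in the other control rats), Creld2 (5.84, against 6.36 to 6.85), and the disulfide isomerases Pdia4 (7.53, against 7.94 to 8.13) and Pdia6 (10.22, against 10.49 to 10.60). Of 13 genes of the unfolded protein response 1 was lowest there, and of 11 mitochondrial chaperone genes 0. J-domain proteins and co-chaperones were lowest there in 9 of 24 (37.5%), a larger share than in the ER list. Of the cytosolic HSP70, HSP90 and small heat shock list it was 2 of 11 (18.2%), and of TRiC and prefoldin 1 of 13 (7.69%). Low levels in this array were thus not particular to ER genes.

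Genes that ran most like Hspa5 over the 14 arrays, by deviations from the group means and as a description, were Gorasp1, a stacking protein of the Golgi (r = 0.88), Cdkl2 (0.86), Mkks (0.85), Creld2 (0.85) and Pdia4 (0.85). Hspa5, Creld2 and Pdia4 all had their lowest level in control replicate 7, and these correlations were not repeated without that array.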
